A study of Equus caballus with 8 samples.

Results

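BDNF (brain-derived neurotrophic factor) and a small set of neurotrophic factors and their receptors were followed in equine mesenchymal stem cells from bone marrow (BM-MSCs) cultured with and without TGF-β2. The genes were taken by symbol from the table of normalized counts, and 6 of the 9 symbols sought had a row: BDNF, GDNF and MANF, which encode secreted factors, and SORT1, NTRK2 and GFRA1, which encode receptors. NTF3, NGFR and NTRK3 had no row and were not analysed here. No gene in the table had fewer than 81 reads summed over the 8 libraries. For these and other genes, a missing row therefore does not show that a gene was not expressed. The 6 genes were among 15266 named genes in the table and among the 14907 that passed a filter on low values, which asked for 10 or more normalized counts in 4 or more libraries of the 8. All 6 passed.

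The cells adhered to plastic and were grown from the sternal marrow of 4 horses, labelled D, J, L and W, which the study describes as Thoroughbreds or Thoroughbred crosses. Marrow of each horse was split into an untreated culture in low-glucose DMEM with serum and basic FGF and a culture that also received 1 ng/ml recombinant human TGF-β2. Each culture gave 1 poly(A)-selected RNA-seq library at passage 3 or 4, so that there were 4 untreated and 4 treated libraries. The passage of each library is not given, and the labels and the methods describe the length of the exposure differently. The labels give TGF-β2 from isolation through passage 3 or 4, and the methods give 3 passages before RNA-seq. By either account the exposure spanned passages. The cultures were primary and not cloned, and basic FGF was present in both groups.

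Neurotrophins are made as precursors and cut by proprotein convertases to the mature form. Mature BDNF signals through the receptor tyrosine kinase TrkB (NTRK2), whereas the precursor binds sortilin (SORT1) together with the p75 receptor (NGFR). Sortilin also carries BDNF into the secretory route. GDNF binds the lipid-anchored receptor GFRA1, which then engages the RET kinase. MANF is a small protein of the endoplasmic reticulum (ER) that is made and secreted when proteins fold poorly there. In marrow, p75 and neurotrophins are also known from stromal cells, outside nerve tissue.

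Reads counted over the named genes came to 39184554 to 57228675 per library, and every value in the table corresponded to a whole number of reads. Libraries were compared with limma on log2(normalized count + 1), with the horse as a block. A gene was called when its Benjamini-Hochberg adjusted p over all genes tested was under 0.05 and its absolute log2 change over 1. Of the tested genes 14.1% were called in either direction, 6.83% higher and 7.31% lower after treatment. In 27.8% of them the 2 groups of libraries did not overlap, with the treated group above in 13.9% and below in 13.9%, and 51.9% changed in the same direction in all 4 horses. Called were 11.5% without the horse as a block, 15.7% with DESeq2, 17% with equal library totals and 7.49% at an adjusted p under 0.01. All 10 markers of marrow stromal cells on the list were present, with summed levels of 453224 to 2261220 normalized counts in untreated and 2528750 to 4007820 in treated libraries. Most of the sum was COL1A1 and COL1A2, which were called higher (log2 change 2.496 and 1.67, COL1A2 not without the block, limma adjusted p = 0.0919). THY1, TWIST1 and PRRX1 of the same list were called lower, with log2 changes of -2.21, -2.47 and -1.19. Of 10 markers of haematopoietic cells, 8 had a row, and their summed levels were 251 to 666 in untreated and 180 to 452 in treated libraries. Single leukocyte genes stood highest in different untreated libraries. PTPRC and CD3E had 110 and 112 normalized counts in horse J, against at most 41.5 and 16.2 in the other untreated libraries. LAPTM5, ITGB2 and SPI1 had 270, 109 and 52.8 in horse L, against 97.0, 71.4 and 1.35 in J, and the highest sum, 666, was that of L. Of 7 endothelial markers 3 had a row, without PECAM1 and VWF, and their summed levels were 21.3 to 46.2 in untreated and 57.2 to 89.9 in treated libraries. Of these KDR was called higher (log2 change 2.27, limma adjusted p = 0.0109). Their part in the results was not tested.

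Of the 6 neurotrophic genes, 3 were called higher after TGF-β2 treatment, namely BDNF, SORT1 and MANF, and GFRA1 was called lower. These 4 were also the genes whose groups did not overlap and which changed in the same direction in all 4 horses. GDNF and NTRK2 were not called. The members were chosen with earlier results known, so 4 of 6 against 14.1% of all genes is a description. In RNA from whole cultures, fewer cells of a type and less RNA per cell cannot be told apart. Levels were not divided by transcript length, so that they are compared between libraries and not between genes.

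**Figure D1:**
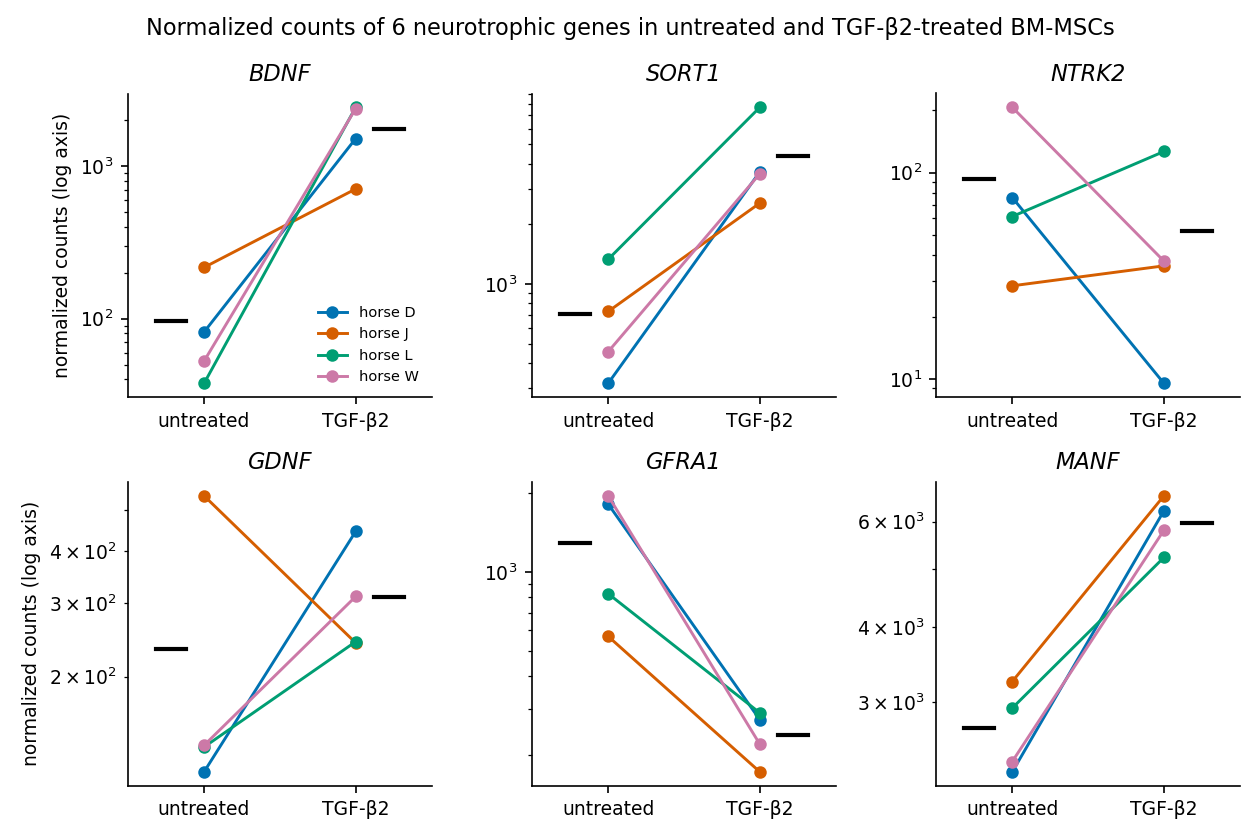
Normalized counts (log axis) of the 6 genes in the untreated and the TGF-β2-treated library of each horse, joined by a line per horse. Black bars are means of 4 libraries. BDNF, SORT1 and MANF were higher and GFRA1 lower in every treated library than in any untreated one, whereas the groups overlap in GDNF and NTRK2.

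BDNF rose most of the 6 genes. The untreated libraries held 81.8 normalized counts of BDNF in horse D, 217 in J, 37.7 in L and 52.8 in W. The treated libraries held 1516 in D, 709 in J, 2429 in L and 2384 in W. Horse J was thus the highest without treatment and the lowest with it, and even its treated library lay above all untreated ones. The mean went from 97.3 ± 81.8 (SD, n = 4) to 1759 ± 817 normalized counts.

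BDNF had a log2 change of 4.34, with 0.71 as its standard error and a 95% interval of 2.58 to 6.09 (limma adjusted p = 0.0103). In single horses BDNF was 3.27-fold higher in J, 18.5-fold in D, 45.2-fold in W and 64.4-fold in L. By size of the log2 change it ranked 81 of the 14907 genes, and by p it ranked 1575. The fewest reads behind any value of BDNF were 40, in the untreated library of L. The call was lost without horse D (limma adjusted p = 0.0533) and without W (0.0624). Without horse J the log2 change was 5.21 and without L 3.79, and both were called. Over all 18 alternatives the adjusted p of BDNF ran from 1.76e-11 to 0.0624.

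The receptors of BDNF moved differently from each other. SORT1 had 318 normalized counts in the untreated library of horse D, 728 in J, 1329 in L and 458 in W. With TGF-β2 it had 3646 in D, 2543 in J, 7678 in L and 3567 in W. Every treated library lay above every untreated one, and horse L was the highest in both groups. The mean of SORT1 rose from 708 ± 447 to 4358 ± 2270 normalized counts (SD, n = 4), and its log2 change was 2.70 with a standard error of 0.27 (limma adjusted p = 0.00324). The rise was between 3.49-fold, in horse J, and 11.5-fold, in D. SORT1 was called under every one of the 18 alternatives, with an adjusted p between 1.095e-17 and 0.0299.

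NTRK2, the gene of TrkB, was read little in these cells. Its untreated libraries held 75.7 normalized counts in horse D, 28.3 in J, 61.2 in L and 207 in W. After treatment they held 9.53 in D, 35.3 in J, 126 in L and 37.2 in W. NTRK2 was lower with treatment in D and W and higher in J and L, and the groups overlapped. Its treated library of D had 8 reads. The log2 change was -0.99 with a 95% interval of -2.82 to 0.84 (limma adjusted p = 0.347). NTRK2 was not called under any of the 18 alternatives, where its adjusted p was 0.158 to 0.768.

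GDNF, the ligand of GFRA1, did not pass the test. Its untreated libraries held 118 normalized counts in horse D, 542 in J, 136 in L and 137 in W. The treated libraries held 445 in D, 241 in J, 243 in L and 311 in W. In horses D, L and W GDNF was 3.76-fold, 1.79-fold and 2.27-fold higher with treatment, and in J it was at 0.444 of the untreated level. The untreated libraries of D, L and W lay close together and below all 4 treated ones, and the untreated library of J lay above all of them. With 4 horses the log2 change was 0.69 (standard error 0.50), and a 95% interval of -0.55 to 1.92 (limma adjusted p = 0.334). Without horse J it was 1.30 and called (limma adjusted p = 0.0140), and over the 18 alternatives the adjusted p ran from 0.0140 to 0.741. The untreated library of J had the most PTPRC and CD3E, while that of L had the highest sum of haematopoietic markers, 666, beside a GDNF of 136. Their part in the level of GDNF was not tested.

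GFRA1 fell in all 4 horses. Untreated libraries held 1821 normalized counts in horse D, 568 in J, 827 in L and 1958 in W. In treated libraries GFRA1 had 273 in D, 172 in J, 290 in L and 220 in W. The untreated libraries fell into a higher pair, D and W, and a lower pair, J and L, while the treated libraries were within 1.68-fold of each other. The mean went from 1294 ± 698 to 239 ± 53.3 normalized counts (SD, n = 4). The log2 change was -2.28 with a standard error of 0.31 (limma adjusted p = 0.00619), with single horses between -3.15 in W and -1.51 in L. GFRA1 was called lower under all 18 alternatives, with an adjusted p of 8.45e-11 to 0.0391. RET, the kinase that GFRA1 engages, had 17.4 ± 1.98 normalized counts in untreated and 8.71 ± 7.17 in treated libraries and was not called (log2 change -1.27, limma adjusted p = 0.120).

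Of the 3 genes called higher, MANF had the smallest log2 change and the smallest spread between horses. The untreated libraries had 2295 normalized counts of MANF in horse D, 3247 in J, 2932 in L and 2388 in W. The treated libraries had 6256 in D, 6626 in J, 5230 in L and 5805 in W. All treated libraries lay above all untreated ones, and horses differed by at most 1.41-fold among untreated and 1.27-fold among treated libraries. MANF had a log2 change of 1.15, with 0.12 as its standard error and a 95% interval of 0.85 to 1.45 (limma adjusted p = 0.00358). In single horses it ran from 0.83 in L to 1.45 in D. The call of MANF depended on scaling. With every library scaled to the same total, under which the median of all genes moved by -0.30 on the log2 scale, MANF had a log2 change of 0.84 (limma adjusted p = 0.00590) and was not called. Over the 18 alternatives its adjusted p was 3.04e-12 to 0.0311.

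**Figure D2:**
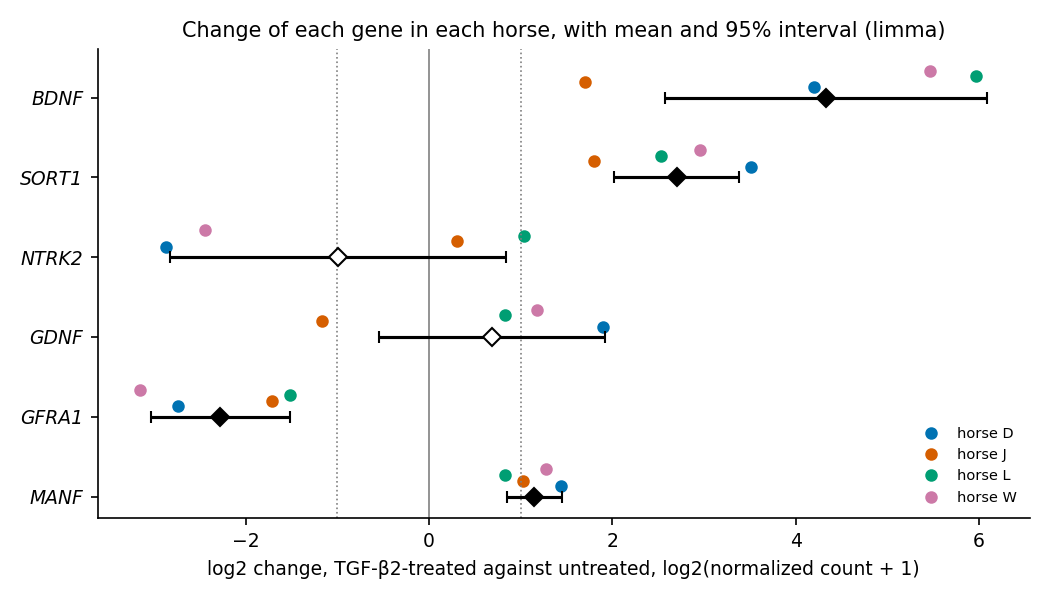
Log2 change of each gene, TGF-β2-treated against untreated, on log2(normalized count + 1). Circles are single horses, diamonds the mean of 4 horses with its 95% interval from limma (filled where called), and dotted lines mark changes of -1 and 1. Horse J was the lowest for BDNF, at 1.70, and the only one below 0 for GDNF, at -1.17.

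The spread of the log2 change between horses differed from gene to gene. With 1 culture per horse and condition, this spread includes differences between cultures and libraries. Counting error also enters it, since NTRK2 had as few as 8 reads in a library and MANF at least 2354. The SD of the log2 change over the 4 horses was 1.91 for BDNF, 1.95 for NTRK2, 1.31 for GDNF, 0.79 for GFRA1, 0.72 for SORT1 and 0.27 for MANF. Horse J had the smallest rise of BDNF and SORT1 and the fall of GDNF. Horses D and W shared the larger falls of GFRA1 and were those in which NTRK2 was lower. Over the 8 libraries, BDNF correlated with SORT1 with a Pearson r of 0.86 and with GFRA1 with an r of -0.87, and GFRA1 with MANF with an r of -0.97. These values are descriptions over libraries that share the treatment and the horse.

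Among all tested genes, those whose log2 levels over the 8 libraries were most like BDNF were TRABD2A (Pearson r = 0.993), RGS4 (0.988), MFSD12 (0.987), EDN1 (0.987) and COG7 (0.984). EDN1 encodes endothelin-1, a vasoactive peptide, and rose from a mean of 111 to 2329 normalized counts. COG7 was not called, with a log2 change of 0.86. KIF21A, a kinesin, was most like SORT1 (r = 0.990), followed by SFXN1 and TSEN54 (0.986 and 0.985). CPNE3, MRAP2 and AGO4 were most like GFRA1, with r of 0.988, 0.986 and 0.986. For MANF they were GNPNAT1 (0.997), an enzyme of the pathway that makes UDP-GlcNAc, ALG5 (0.994) and PSMD13 (0.994). The treatment separates the 8 points for most of these genes.

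**Figure D3:**
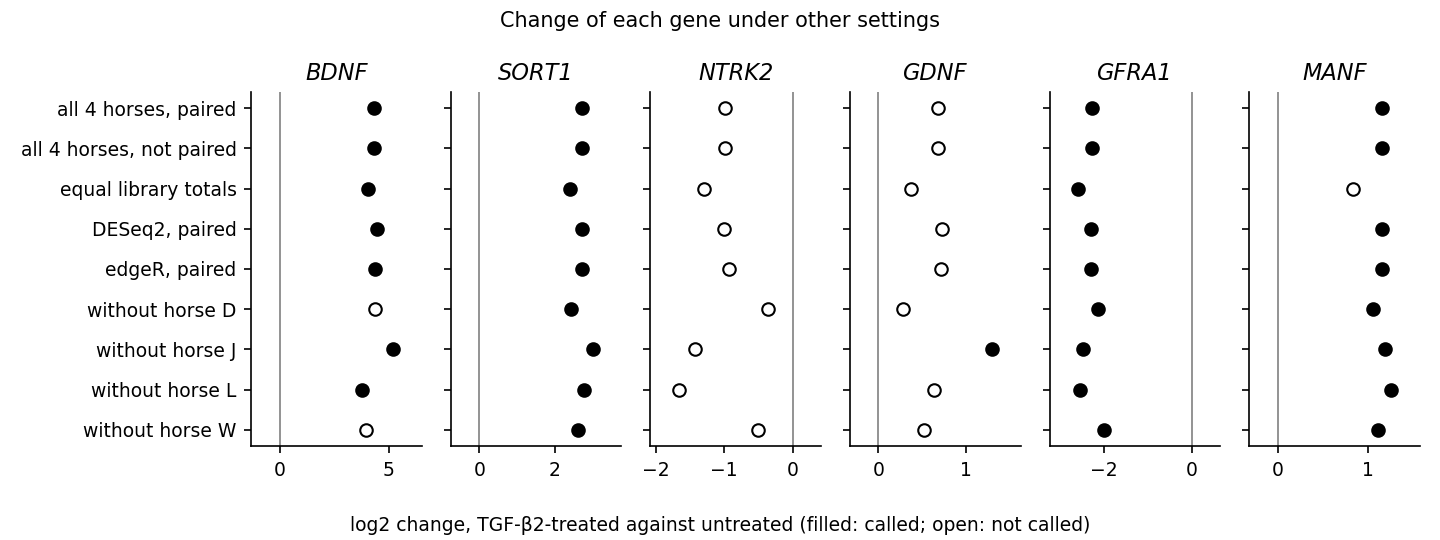
Log2 change of each of the 6 genes with all 4 horses and under 8 other settings, filled where the gene was called. SORT1 and GFRA1 were called in all settings shown. BDNF was not called without horse D or W, GDNF was called only without horse J, and MANF was not called with equal library totals.

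Of 13 other neurotrophic ligands on the list, 9 were tested and 3 were called, all higher. The share called was 33.3%, against 14.1% of all genes in either direction and 6.83% called higher. The median log2 change of the list was 0.45, against 0.01 over all genes. NRG1, which encodes neuregulin-1, a growth factor for Schwann cells, was hardly read without treatment. It had 2 reads in the untreated library of horse D, 23 in J, and 1 each in L and W, and 116, 79, 147 and 70 reads in the treated libraries of D, J, L and W. All treated libraries lay above all untreated ones. The log2 change of 4.97 (limma adjusted p = 0.00676) depends on the pseudocount, and NRG1 was called under all 18 alternatives. LIF, a cytokine of the IL-6 family that also acts on neurons, had 570 ± 326 normalized counts in untreated and 1311 ± 191 in treated libraries (SD, n = 4). Its log2 change was 1.38 (limma adjusted p = 0.0490), with a rise of 1.09-fold in horse J. The call was lost without D, L or W (0.118 to 0.182). It was also lost with equal library totals (limma adjusted p = 0.0665) and with edgeR (edgeR adjusted p = 0.0599). LIF was called under 11 of the 18 alternatives. CNTF, ARTN, CLCF1, MDK, PTN and VGF were not called, with log2 changes from -1.001 to 0.82. NTF4, the ligand that shares TrkB with BDNF, did not pass the filter. It had 6.09 to 83.5 normalized counts in untreated and 2.14 to 11.9 in treated libraries.

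Among 16 other receptors and co-receptors 8 were tested, of which 1 was called higher and 2 lower, with a median log2 change of -0.90. The share called was 37.5%, against 14.1% of all genes. SORCS2, a relative of sortilin that binds precursor BDNF, had 159 normalized counts in the untreated library of horse D, 6.73 in J, 786 in L and 529 in W. After treatment it had 2112 in D, 1760 in J, 2262 in L and 4406 in W. The groups did not overlap, and the untreated library of J was far the lowest. The log2 change of SORCS2 was 4.03 with a standard error of 0.99 (limma adjusted p = 0.0314). TNFRSF19, a relative of p75, fell from 1535 ± 537 to 17.0 ± 23.2 normalized counts (SD, n = 4), with a log2 change of -7.21 (limma adjusted p = 0.00488). Its treated libraries had 3 reads in horse D, 48 in J, 2 in L and 9 in W, so that the size of the change depends on the pseudocount, and it ran from -8.29 to -6.49 over the 18 alternatives. GFRA3, the receptor of artemin, fell in all 4 horses, by -2.24 to -0.90, and had a log2 change of -1.35 (limma adjusted p = 0.0165). Without the horse as a block neither SORCS2 nor GFRA3 was called (limma adjusted p = 0.0568 and 0.215), which left TNFRSF19 of the list. SORCS2 was also lost without horse D (0.107) and W (0.1002), and GFRA3 without L (0.0503) and W (0.0659). The receptors not called were RET, GFRA2, SORL1, NCAM1 and TNFRSF21, at -1.27 to 2.58.

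The list for the processing of neurotrophin precursors had 12 tested genes, 3 called higher and 3 lower, with a median log2 change of -0.17. The share called was 50%, against 14.1% of all genes. PCSK7, a proprotein convertase, had a log2 change of 1.20 (limma adjusted p = 0.00286). FURIN, the convertase best known for cutting pro-BDNF, had a log2 change of 0.67, under the fold threshold (limma adjusted p = 0.00589), and was higher in all 4 treated libraries than in any untreated one. PCSK1, the convertase of the regulated secretory route, fell from 322 ± 166 to 34.99 ± 36.5 normalized counts (SD, n = 4). Its log2 change was -3.55 (limma adjusted p = 0.0203). CPE (carboxypeptidase E), which sorts pro-BDNF, had a log2 change of 1.80 (limma adjusted p = 0.0190), but was not called without the block (0.309). PLAU, the urokinase plasminogen activator, and MMP9, a metalloproteinase, had log2 changes of -1.19 and -2.15 (limma adjusted p = 0.0426 and 0.0209). PCSK7 had a log2 change of 0.89 with equal library totals and was then not called. CPE, MMP9, PCSK1 and PLAU were lost without horse D and without W (limma adjusted p between 0.0689 and 0.154), and PLAU also without L (0.128), which left 2 called genes without D or W.

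**Figure D4:**
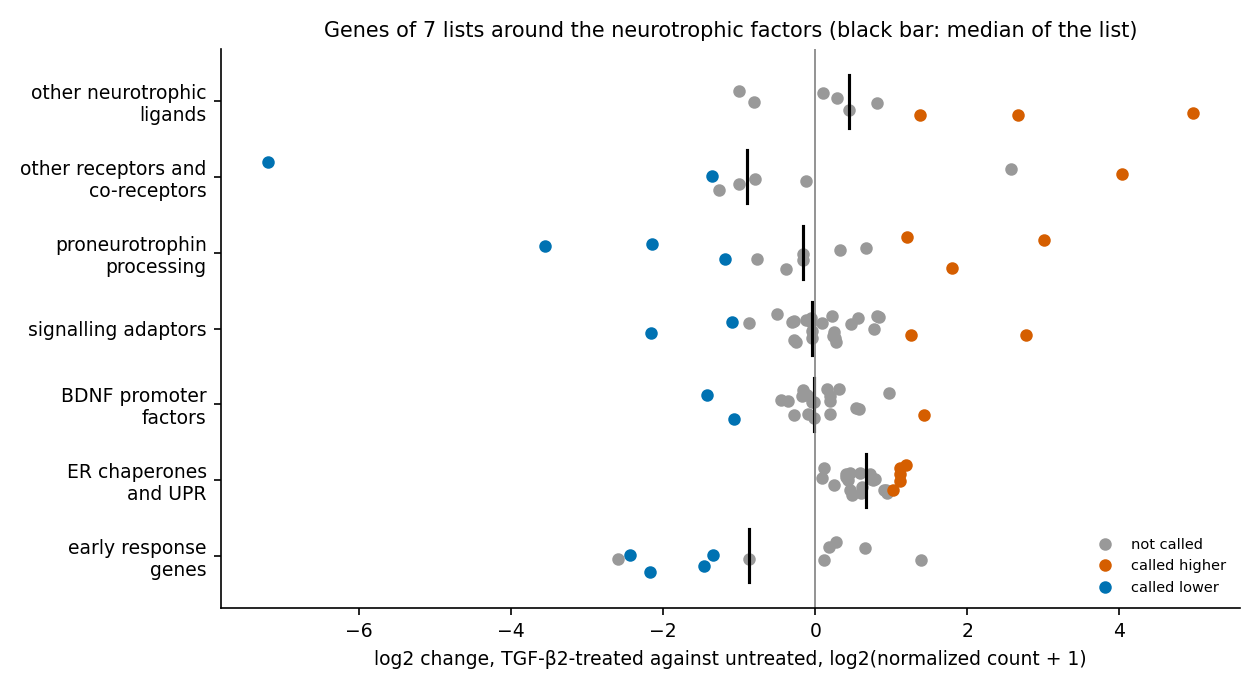
Log2 change of each tested gene of 7 lists, TGF-β2-treated against untreated, on log2(normalized count + 1). Points are genes, coloured by call, with a black bar at the list's median. With the deposited scaling, all 24 ER chaperone and unfolded protein response genes lie above 0, and the 4 called early response genes lie below -1.

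Of 27 tested adaptors of Trk, RET and p75 signalling, 2 were called higher and 2 lower, 14.8% of the list against 14.1% of all genes. GAB2, a docking protein, had 168 ± 95.6 normalized counts in untreated and 1102 ± 572 in treated libraries (SD, n = 4), with a log2 change of 2.77 (limma adjusted p = 0.0223). DOK5 and DOK4, substrates of RET, had log2 changes of 1.26 and -1.09 (limma adjusted p = 0.0363 and 0.0204). SHC3, the Shc adaptor best known from neurons, had a log2 change of -2.16 (limma adjusted p = 0.0169). SHC3 and DOK4 were not called without the block (limma adjusted p = 0.140 and 0.1004). The other 23 had log2 changes between -0.87 and 0.83. Each of the 4 was lost without horse W (limma adjusted p from 0.0527 to 0.143), and DOK4, DOK5 and GAB2 also without D (0.0937 to 0.101). DOK4 and SHC3 were lost without L (0.0518 and 0.0662), and DOK5 was under the fold threshold without J.

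Of 21 transcription factors known at the BDNF promoters, 1 was called higher and 2 lower, 14.3% of the list against 14.1% of all genes. The median log2 change was -0.02. NPAS4, an activity-induced factor of BDNF promoters in neurons, had 85.3 normalized counts in the untreated library of horse D, 110 in J, 154 in L and 199 in W. With treatment NPAS4 had 320 in D, 263 in J, 427 in L and 433 in W. The groups did not overlap, and the log2 change was 1.43 with a standard error of 0.18 (limma adjusted p = 0.00506). MEF2C and NFATC4 had log2 changes of -1.43 and -1.07 (limma adjusted p = 0.0280 and 0.00870). MEF2C was not called without the block (limma adjusted p = 0.0884) nor without D, L or W (0.0805 to 0.123). Without L, NFATC4 had a log2 change of -0.90 (limma adjusted p = 0.0176), and without W its adjusted p was 0.0560. CREB1, the factor most often tied to BDNF, had 1686 ± 178 normalized counts in untreated and 1633 ± 112 in treated libraries, with a log2 change of -0.04 and a 95% interval of -0.31 to 0.23. RCOR1, a corepressor partner of REST, was higher in every horse by 0.93 to 1.00 and did not reach the fold threshold (log2 change 0.97, limma adjusted p = 0.00163). REST had a log2 change of 0.20 and was not called.

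The ER genes were listed because MANF is made with them. All 24 tested genes had log2 changes above 0, with a median of 0.67. Of them 5 were called, all higher, or 20.8%, against 14.1% of all genes called in either direction and 6.83% called higher. The 5 were HYOU1 and CRELD2, a chaperone and a secreted ER protein, KDELR3, a receptor that returns ER proteins, PDIA4, a disulfide isomerase, and ATF4, a transcription factor of the stress response. Their log2 changes were 1.20, 1.12, 1.12, 1.02 and 1.11 (limma adjusted p between 0.00286 and 0.0135). In 14 of the 24 genes the groups did not overlap, with the treated group above, which held for 13.9% of all genes. Among the 14 were HSPA5 (BiP), with a log2 change of 0.93, and HSP90B1, with 0.91. The other 19 had log2 changes of 0.09 to 0.94. With equal library totals the 5 genes were under the fold threshold (limma adjusted p from 0.00662 to 0.0291) and no gene of the list was called, and the list's median was 0.36 against -0.30 for all genes. ERN1, DNAJC3 and SEL1L were then below 0, at -0.225, -0.203 and -0.067, so that the common direction of the list depended on scaling. Without horse D 1 gene of the list was called, HYOU1, and without W 3 were, after the loss of ATF4 and CRELD2.

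Of 12 early genes that Trk signalling is known to induce, 11 were tested and 4 were called, all lower. These were 36.4% of the tested genes, against 14.1% of all genes called in either direction and 7.31% called lower. DESeq2 with the block called 5 lower and 1 higher. The 4 were EGR1, FOS, FOSB and JUNB, all encoding transcription factors. EGR1 went from 8582 ± 3516 to 1600 ± 666 normalized counts and FOS from 12143 ± 6829 to 2699 ± 1475 (SD, n = 4). The log2 changes were -2.44 for EGR1, -2.18 for FOS, -1.34 for FOSB and -1.47 for JUNB (limma adjusted p = 0.0179, 0.0114, 0.00855 and 0.00605). JUNB was called with any 1 horse left out, EGR1 was lost without L or W, and FOS and FOSB without W (limma adjusted p between 0.0518 and 0.0866). Without the block FOSB was not called (limma adjusted p = 0.0718) and EGR3 was (0.0335). With the block EGR3, which was lower in all treated libraries than in any untreated one, had a log2 change of -2.59 (limma adjusted p = 0.0503). Of the 11 tested genes, 6 had log2 changes below 0 and 5 above 0, so the direction was not shared by the list. Among the latter, DUSP4 had a log2 change of 1.39 (limma adjusted p = 0.0668) and DUSP6 one of 0.11, and neither was called. DUSP4 was higher with treatment in 3 horses and lower in J. Leaving out 1 horse also added calls, of DUSP4 and EGR3 without J, NR4A1 without W and SPRY4 without L.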

How the data were processed

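Untreated BM-MSCs of 4 horses were compared with cultures of the same horses given TGF-β2 by RNA-seq, grouped and paired by the sample titles. Per the labels and the study's methods, reads were trimmed with Trimmomatic 0.36, aligned to EquCab 3.0 with STAR 2.5.2b and counted as unique hits per gene with featureCounts (Subread 1.5.2). The authors deposited gene counts divided by a size factor per library, a signal, for 15267 rows. The row without a gene name was left out (at most 0.0531% of a library).

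Dividing each deposited value by the value of 1 read gave whole reads for 100% of values, within 0.0001 of a read. Two-sided tests used limma 3.58.1 in R 4.3.3 (lmFit, eBayes with trend), with the horse as a block, since both cultures came from the same marrow. Libraries of the same horse deviated together from their group means (r of 0.386 to 0.609 over 14907 genes). Alternatives were other pseudocounts, filters, scalings and thresholds, no trend, no block, DESeq2 1.42.0 and edgeR 4.0.16 on the recovered reads, and each horse left out. The tests were checked on simulated data in which a changed gene had the same change in every horse. That check does not cover changes that differ between horses. With the horse as a block, p-values measure the spread between horses of the change with treatment, not of the level. With 1 culture per horse and condition, that spread includes differences between cultures and libraries.

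Members, gene lists and rules were chosen with earlier results of these data known. Named are all members, the called genes of each list (some listed genes are counted but not reported here), uncalled ligands and receptors, and the genes most correlated with called members. FURIN, CREB1, RCOR1, REST, HSPA5, HSP90B1, ERN1, DNAJC3, SEL1L, EGR3, DUSP4, DUSP6, NR4A1, SPRY4, TUBB3, SYN1, SYP, NEFL, COL1A1, COL1A2, THY1, TWIST1, PRRX1, PTPRC, CD3E, LAPTM5, ITGB2, SPI1, KDR, PECAM1, VWF and PMP22 were named after their values were seen. Sequences and coordinates were not used here.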

Additional observations from a re-analysis of the deposited data

Results flagged for a closer look

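One value stood apart from its group. GDNF had 542 normalized counts in horse J without TGF-β2, and the gap to the nearest other untreated library was 0.956 of the range of the 4 untreated libraries, above Dixon's 95% critical value for 4 samples. Of the 6 genes in 2 groups each, 12 groups of 4 libraries in all, this was the 1 that did. For normally distributed values chance gives about 1 in 20 groups, so 1 flag among 12 groups can arise by chance.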

How the results depend on the processing

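The 4 calls among the 6 neurotrophic genes were also made without the horse as a block (4 called) and with DESeq2 and edgeR on the recovered reads, both with the block. With 1 horse left out at a time, 3 to 5 of the 6 were called. At an adjusted p under 0.01, BDNF, with its log2 change of 4.34, was not called. With 1 horse left out its log2 change ran from 3.79 to 5.21. Over all genes 2108 were called, 1709 without the replicate block, 1116 at an adjusted p under 0.01, 4610 with no fold change threshold, and 1080 to 2442 with 1 horse left out, with 588 higher and 585 lower without D and the lowest count without W. Of the called genes 48.3% were higher, and 27.6% with equal library totals. Of the genes of the 7 lists together 28 were called, 25% of those tested, against 14.1% of all genes. There were 21 without the replicate block, 12 at an adjusted p under 0.01 and 50 with no fold change threshold. With 1 horse left out there were 10 to 33 (13 without D and 10 without W). Called in every fit with 1 horse left out were 7 of the 28. With equal library totals PSMD13, a proteasome subunit gene, had a log2 change of -0.033 against 0.28. The cause of these moves was not tested, except that fewer horses leave fewer libraries. Reads limit NTRK2, NRG1 and TNFRSF19, which had 8, 1 and 2 in their lowest libraries. They also limit KDR, RET, EGR3 and PCSK1, with 1, 2, 2 and 7. RGS4, among the genes most like BDNF, had a mean of 1.06 normalized counts in untreated libraries. A floor of 3 reads was 2.02 to 3.604 normalized counts and covers counting error only.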

Other observations

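Of 11 markers of neurons on the list, 4 had a row. TUBB3, a tubulin used as a neuronal marker, had 2965 ± 1203 normalized counts in untreated and 16293 ± 5079 in treated libraries (SD, n = 4), a log2 change of 2.502 (limma adjusted p = 0.00411). The other 3 were low. SYN1 was at 74.6 on average in untreated and 102 in treated libraries and was not called. SYP and NEFL were under the filter and had lower means with treatment. SYP went from 20.98 to 4.68, lower in all 4 horses, and NEFL from 11.8 to 7.08, lower in 2 horses and higher in 2. Summed over the list, the level was 1857 to 4327 in untreated and 12279 to 22879 in treated libraries, nearly all of it TUBB3. Of 9 markers of Schwann cells and glia, 3 had a row, with PMP22 as the most abundant (log2 change -0.54, limma adjusted p = 0.0154, under the fold threshold). SOX10, S100B and GFAP had no row.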
